A study of Mus musculus with 2 samples.

Results

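The genes of MHC class I and of its peptide supply were examined in sorted brain microglia of PSAPP mice. The 10 members were chosen by name as *H2-K1*, *H2-D1*, *B2m*, *H2-T23*, *Tap1*, *Tap2*, *Tapbp*, *Psmb8*, *Psmb9* and *Nlrc5*, and all 10 had a row among the 32285 genes of the count table. The mice carried the APPswe and PS1.delta.E9 transgenes in both groups, which model amyloid deposition and not the other lesions of Alzheimer's disease. They were gavaged every day for 30 days from 9 months of age with vehicle (VEH) or with the dual orexin receptor antagonist lemborexant (LEM, 30 mg/kg), and at 10 months the live CD45loCD11b+ fraction of cortex and hippocampus was sorted, a gate that leaves out CD45-high cells. Each treatment was 1 library from 5 pooled mice, females and males together, so no treatment difference could be tested against replicates.

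Nucleated cells use MHC class I to show peptides from their own cytosol to CD8 T cells. The proteasome, and in particular its interferon-inducible form with the subunits encoded by *Psmb8* and *Psmb9*, cuts proteins into peptides. The transporter built from Tap1 and Tap2 moves them into the endoplasmic reticulum, tapasin (*Tapbp*) helps to load them, and the heavy chains H2-K1 and H2-D1 carry them to the surface together with beta-2-microglobulin (*B2m*). *H2-T23* encodes the non-classical heavy chain Qa-1, which is read by inhibitory receptors on NK and T cells, and *Nlrc5* encodes the transactivator of the class I genes. Microglia near amyloid plaques can take on a disease-associated (DAM) state, and a small subset carries an interferon response.

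The VEH library held 18374 cells and 116229678 counts of unique molecular identifiers (UMIs), and the LEM library 24392 cells and 160752298 counts, with medians of 5971 and 6034 counts per cell. Markers of T and NK cells summed to at most 15 counts in a library, with *Cd3e*, *Trac* and *Nkg7* at 0. At least 1 of 6 microglial markers was in over 99.9% of cells. Cells with *Xist* counts only were taken as female and cells with Y-linked counts only as male, which gave 4 pools of different mice (VEH female 5686, VEH male 9025, LEM female 8409 and LEM male 11223 cells). The number of mice of each sex in a pool was not given in the sources used here. Scrublet called 8.35% of the VEH and 14.1% of the LEM cells doublets, and these cells were kept.

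Cells were assigned to states from raw counts of marker genes, none of them a member. A cell was interferon-like with at least 3 of *Ifit1*, *Ifit2*, *Ifit3*, *Isg15*, *Rsad2* and *Usp18* (327 VEH and 592 LEM cells), DAM-like with at least 3 of *Cst7*, *Lpl*, *Spp1*, *Itgax* and *Gpnmb* (450 and 571), class II-high with at least 2 of *H2-Aa*, *H2-Ab1* and *H2-Eb1* and 3 counts of them in all (192 and 146), and proliferating-like with at least 3 of *Mki67*, *Top2a*, *Ube2c*, *Birc5*, *Cdk1* and *Ccnb2* (139 and 215). Homeostatic cells had at least 3 counts of *P2ry12* and none of these markers (11267 and 13844). DAM-like cells were deeper than homeostatic cells, with medians of 11265 and 11737 against 5621 and 5671 counts. Levels are therefore given as CPM, the counts of a gene summed over the cells of a state and scaled to a common total of all their counts. These 5′ counts are not scaled by length, so a gene was compared between states and not with another gene.

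Of the 10 members, 8 lie within the MHC region or next to it on chromosome 17 of GRCm38, the build that mm10 names, *B2m* on chromosome 2 (122147686 to 122153083) and *Nlrc5* on chromosome 8 (94434356 to 94527272). *H2-K1* spans 33996017 to 34000347, *H2-D1* 35262730 to 35267499 and *H2-T23* 36029773 to 36032855. The genes of peptide supply lie together, *Psmb9* at 34181987 to 34187764, *Tap1* at 34187553 to 34197225, *Psmb8* at 34197721 to 34201454 and *Tap2* at 34203527 to 34216321, with *Tapbp* at 33915899 to 33929292. *Tap1* and *Psmb9* overlap at their 5′ ends on opposite strands. *Tapbp* overlaps *Zbtb22* and *Nlrc5* overlaps *Mir7072* on the same strand, and how reads in these 2 overlaps were counted is uncertain. *B2m* overlaps *Patl2*, *H2-T23* overlaps *A930015D03Rik*, *Tap2* and *Psmb8* overlap *Gm20496*, and *Nlrc5* overlaps *9330175E14Rik*. *H2-K1*, *H2-D1*, *H2-T23* and the other class I heavy chains are related in sequence to differing degrees, and how the counting treated any reads shared between them is uncertain.

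RefSeq promoter windows (GRCm38.p6, from 250 bases before to 50 after the start) were available for 8 of the 10 members, and for neither *Tap2* nor *Nlrc5*. The windows of *H2-K1*, *H2-D1* and *B2m* are printed because these 3 genes were higher in DAM-like and interferon-like cells alike, as shown further on. Capitals mark matches on either strand to an interferon regulatory factor core (AANNGAAA), a kappaB site (GGGANTCCC or GGGANTTTC), a CCAAT box (CCAAT) and the core of a cyclic AMP response element (CRE core, TGACG). The windows are at chr17:34000298-34000597 (minus strand, the first of its 2 listed starts), chr17:35262844-35263143 (plus strand) and chr2:122147437-122147736 (plus strand).
H2-K1: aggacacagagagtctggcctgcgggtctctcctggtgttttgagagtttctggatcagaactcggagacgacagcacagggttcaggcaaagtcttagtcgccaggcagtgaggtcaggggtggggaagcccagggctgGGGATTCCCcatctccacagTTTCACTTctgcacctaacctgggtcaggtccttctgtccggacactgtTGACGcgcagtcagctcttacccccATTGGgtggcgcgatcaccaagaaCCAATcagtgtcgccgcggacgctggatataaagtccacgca
H2-D1: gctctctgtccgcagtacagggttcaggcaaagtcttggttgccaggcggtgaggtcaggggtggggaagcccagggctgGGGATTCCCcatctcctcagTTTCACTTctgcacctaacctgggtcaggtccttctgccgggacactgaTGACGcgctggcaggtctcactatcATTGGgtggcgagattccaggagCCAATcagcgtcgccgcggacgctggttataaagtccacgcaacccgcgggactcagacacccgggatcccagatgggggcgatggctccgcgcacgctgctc
B2m: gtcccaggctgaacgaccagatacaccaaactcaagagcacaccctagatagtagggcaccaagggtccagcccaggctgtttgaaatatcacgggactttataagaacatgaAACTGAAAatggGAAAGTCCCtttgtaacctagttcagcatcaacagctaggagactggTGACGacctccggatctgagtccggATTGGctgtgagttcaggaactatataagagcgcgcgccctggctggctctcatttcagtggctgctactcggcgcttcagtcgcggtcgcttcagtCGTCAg
Each of the 3 windows held all 4 motifs, in the order kappaB site, interferon regulatory factor core, CRE core and CCAAT box for *H2-K1* and *H2-D1*, and with the core before the kappaB site for *B2m*. Among all 32851 promoter windows, 13 (0.0396%) held the 4 motifs together, and these belonged to 12 genes, of which *H2-Q7* is a further class I heavy chain. At their best alignment without gaps, 73.3% of 240 bases were the same in the *H2-K1* and *H2-D1* windows, so their matches are not separate observations. The 4 motifs were picked for the promoters of these members, so the share over all windows is a description and not a test.

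The windows of *Tap1* and *H2-T23*, which were far higher in interferon-like than in DAM-like cells, are shown for contrast (chr17:34187306-34187605, plus strand, and chr17:36032652-36032951, minus strand).
Tap1: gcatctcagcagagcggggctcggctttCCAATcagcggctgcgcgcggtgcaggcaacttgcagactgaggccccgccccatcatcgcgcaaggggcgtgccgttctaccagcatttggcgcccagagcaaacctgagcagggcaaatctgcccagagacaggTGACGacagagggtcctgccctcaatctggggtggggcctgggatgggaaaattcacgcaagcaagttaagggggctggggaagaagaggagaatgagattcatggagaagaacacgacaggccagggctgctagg
H2-T23: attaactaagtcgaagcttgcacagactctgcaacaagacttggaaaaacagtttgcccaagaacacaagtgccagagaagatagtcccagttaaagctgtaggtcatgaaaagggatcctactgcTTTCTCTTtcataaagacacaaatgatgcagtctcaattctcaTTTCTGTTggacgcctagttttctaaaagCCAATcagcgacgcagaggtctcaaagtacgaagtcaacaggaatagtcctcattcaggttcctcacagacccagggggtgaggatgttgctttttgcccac
The *Tap1* window overlaps that of *Psmb9* by 275 of 300 bases, since the listed starts of the 2 genes lie 226 bases apart and they are transcribed in opposite directions. It held a CCAAT box and a CRE core. The *H2-T23* window held 2 interferon regulatory factor cores and a CCAAT box. A kappaB match was found in 3 of the 8 members with a window, against 1.87% of all windows, an interferon regulatory factor core in 4 of 8 (23.9%), a CRE core in 5 of 8 (20.8%) and a CCAAT box in 7 of 8 (37.4%). The CRE core and the CCAAT box of *Tap1* and *Psmb9* are the same sites read on opposite strands, so they are counted for both genes. The *Psmb8* window held none of these letters. A match describes the sequence, the motifs were picked for these members, and binding was not measured here.

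The first question was how strongly each cell state expressed the class I genes. Among genes detected in at least 10% of homeostatic cells, a filter added after the data were seen, 8 of 9 members were higher in interferon-like cells by a log2 ratio of at least 0.5 in both libraries, where 1.99% of the 6982 genes tested were. The median of these 9 was 0.92 and that of all genes tested -0.11. With genes detected in either state it was 9 of 10 members and 3.7% of 7754 genes, but *Nlrc5* reached that filter only through the interferon-like cells in which it was high. *Nlrc5* stood far above the others, followed by *Tap1* and *H2-T23*, and only *Tapbp* stayed under the threshold.

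*Nlrc5*, the class I transactivator, was at 4.27 CPM in VEH and 4.83 CPM in LEM homeostatic cells and at 65.4 and 63.0 CPM in interferon-like cells. The log2 ratio was 3.93 (95% counting interval 3.65 to 4.21) in VEH and 3.70 (3.49 to 3.92) in LEM, and ran from 3.14 to 4.30 over the 4 pools. All 4 pools of interferon-like cells, at 49.0 to 82.8 CPM, lay above every pool of the next state. Interferon-like cells were 1.78% of VEH and 2.43% of LEM cells and held 20.7% and 24.9% of all *Nlrc5* counts.

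*Tap1*, which encodes a subunit of the peptide transporter, was at 28.6 and 30.2 CPM in homeostatic and 107.8 and 102.2 CPM in interferon-like cells of VEH and LEM. Its log2 ratios were 1.92 (1.73 to 2.10) and 1.76 (1.62 to 1.89). Its partner *Tap2* reached 125.7 and 119.1 CPM from 83.9 and 83.6 CPM, with log2 ratios of 0.58 and 0.51. The ratio was thus larger for *Tap1* than for *Tap2* in both libraries, and their intervals did not overlap.

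Of the 3 heavy chain members, *H2-T23* had the largest ratio, from 254.5 and 255.0 CPM to 622.6 and 550.4 CPM, with log2 ratios of 1.29 (1.22 to 1.36) and 1.11 (1.05 to 1.17). *H2-K1* was at 666.9 and 752.0 CPM against 310.1 and 358.7 CPM, a mean log2 ratio of 1.09. *H2-D1* had a mean log2 ratio of 0.94 and *B2m* of 0.85. For each of these 4 genes, every interferon-like pool lay above every homeostatic pool.

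The inducible proteasome subunits had mean log2 ratios of 0.92 for *Psmb9*, which was above that of *B2m*, and 0.73 for *Psmb8*. The tapasin gene *Tapbp* was at 218.2 and 226.5 CPM against 167.0 and 170.3 CPM, log2 ratios of 0.39 and 0.41, which were the smallest among the members. Its 4 interferon-like pools (213.9 to 234.1 CPM) still lay above its 4 homeostatic pools (159.4 to 178.2 CPM).

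**Figure D1:**
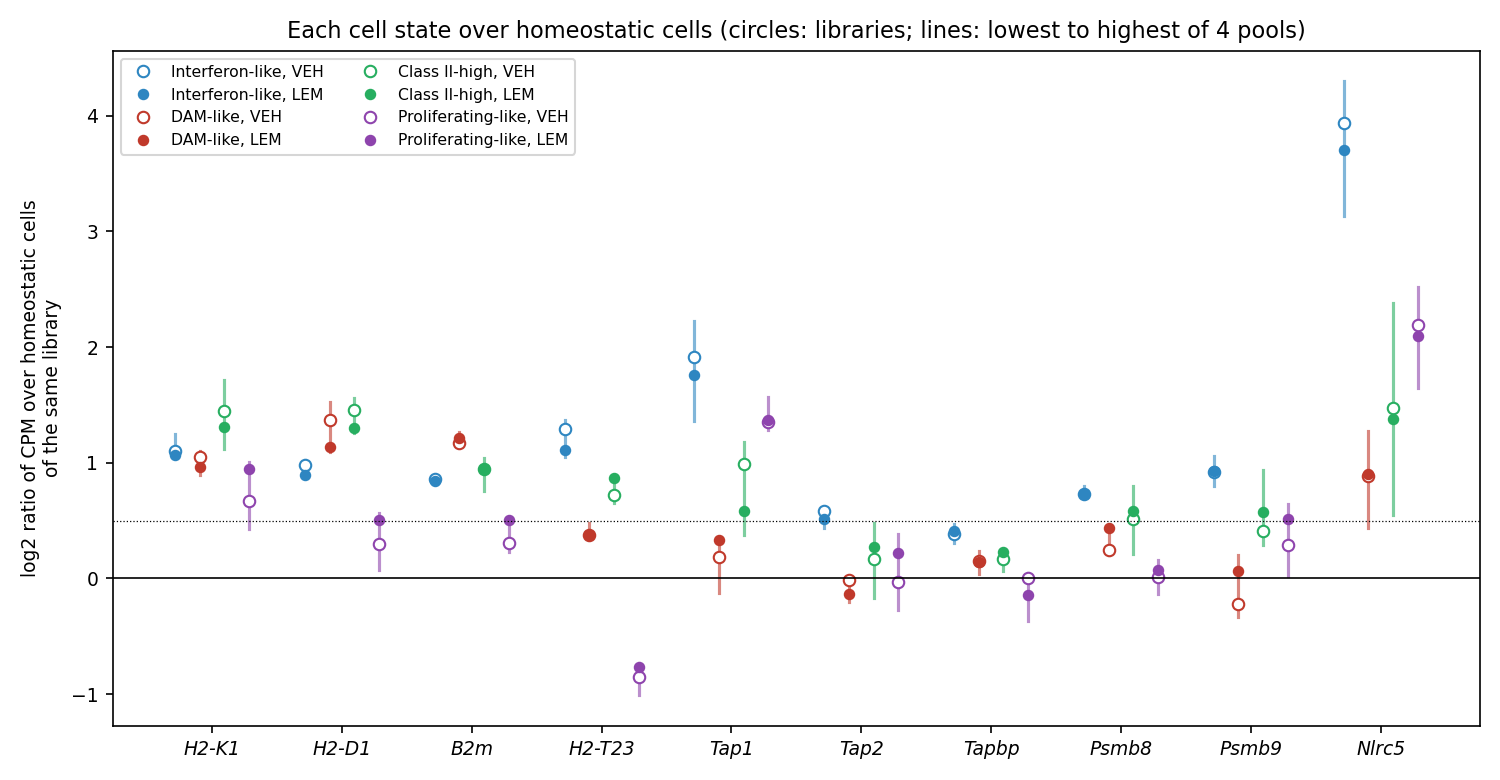
Log2 ratio of CPM of each cell state over homeostatic cells of the same library (y axis) for the 10 genes (x axis). Open circles are VEH, filled circles LEM, lines span the lowest to the highest of the 4 pools of mice, and the dotted line marks 0.5. Interferon-like cells reach 3.93 for Nlrc5, while DAM-like cells are above 1 in the VEH library for H2-K1, H2-D1 and B2m alone among the 10 genes.

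DAM-like cells showed a different selection. The 3 members past the threshold in both libraries were the heavy chains *H2-K1* and *H2-D1* and their light chain *B2m*, of 9 members tested, and 7.49% of the 8289 genes tested were past it (5.63% of those detected in homeostatic cells). *B2m* was at 2034 and 2084 CPM in DAM-like cells of VEH and LEM against 906.2 and 898.2 CPM in homeostatic cells, with log2 ratios of 1.17 (1.14 to 1.20) and 1.21 (1.19 to 1.24). *H2-D1* was at 1452 and 1410 CPM against 562.9 and 642.2 CPM, with log2 ratios of 1.37 and 1.13. *H2-K1* was at 642.5 and 698.9 CPM, with log2 ratios of 1.05 and 0.96. All 4 DAM-like pools lay above all 4 homeostatic pools for each of the 3 genes.

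Of the members tested, *H2-T23* and the genes that supply and load peptides did not pass the threshold in DAM-like cells. The mean log2 ratio was 0.38 for *H2-T23*, 0.34 for *Psmb8*, 0.26 for *Tap1* and 0.14 for *Tapbp*. *Psmb9* was at -0.22 (-0.38 to -0.06) in VEH and 0.06 (-0.07 to 0.19) in LEM, and *Tap2* at -0.02 (-0.16 to 0.13) and -0.14 (-0.27 to -0.01). The mean was -0.08 for both, and turns positive when counts are scaled by the median of ratios, since the median of all genes lay at -0.27 in VEH and -0.30 in LEM. With that scaling 5 of the 9 members were past the threshold, *H2-T23* and *Psmb8* being the ones added, so their place under it depends on the scaling. The share of all genes past it under that scaling was not counted. *Nlrc5*, detected in 8.0% and 8.58% of DAM-like cells and so outside the genes tested, was at 7.90 and 9.05 CPM, from 40 and 61 counts, with log2 ratios of 0.89 (0.37 to 1.37) and 0.91 (0.49 to 1.30).

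Set side by side, the pools of interferon-like and of DAM-like cells did not overlap for 9 of the 10 members, the exception being *H2-K1* (645.1 to 874.9 and 582.2 to 766.9 CPM). *H2-D1* and *B2m* were higher in the DAM-like pools, *B2m* at 2040 to 2254 CPM against 1510 to 1770 CPM. The other 7 were higher in the interferon-like pools, *Tap1* at 92.9 to 123.1 CPM against 22 to 41.3 CPM. How many of all genes had pools apart was not counted, so the 9 are not read as a trait of the members. The median of all genes lay at -0.09 and -0.11 in interferon-like cells and at -0.27 and -0.30 in DAM-like cells, a gap wider than that between the pools of *Tapbp* and of *Psmb8*, so these would overlap once scaled for it. The interferon and DAM gates were both passed by 22 VEH and 57 LEM cells, which were counted as interferon-like.

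Class II-high cells outside the DAM gate, selected by the genes of the other antigen presentation pathway, had 6 of 9 tested members past the threshold, against 4.45% of 7565 genes (3.17% of those detected in homeostatic cells). *H2-K1* (846.1 and 886.5 CPM) and *H2-D1* (1547 and 1582 CPM) were highest in this state among the 6 states with at least 50 cells in each library, with a mean log2 ratio of 1.38 for each. *B2m* followed at 0.95, *H2-T23* at 0.80, *Tap1* at 0.78 and *Psmb8* at 0.55. The pools, the smallest of 32 VEH female cells, overlapped those of the state next in order for both *H2-K1* and *H2-D1*. The class II gate also divided the DAM-like cells. Those that passed the class II gate (196 VEH and 190 LEM cells) exceeded those that did not (254 and 381) by log2 ratios of 0.39 and 0.22 for *H2-K1*, 0.32 and 0.26 for *H2-D1* and 0.23 and 0.27 for *B2m*, while the intervals for *Tap1*, *Tap2*, *Tapbp*, *Psmb9* and *Nlrc5* included 0 in both libraries and those for *H2-T23* and *Psmb8* in LEM.

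Proliferating-like cells had *Tap1* (mean log2 ratio 1.36) and *H2-K1* (0.81) past the threshold, 2 of 9 members detected in homeostatic cells, against 12.1% of such genes. *Nlrc5* (19.4 and 20.6 CPM, mean log2 ratio 2.14, from 28 and 47 counts) passed the filter only through these cells, and with it the count was 3 of 10 against 21.4% of 8946 genes, and neither count is read as a result about the members. *H2-T23* differed in the opposite direction, at 141.0 and 149.7 CPM against 254.5 and 255.0 CPM in homeostatic cells, with log2 ratios of -0.85 (-1.06 to -0.65) and -0.77 (-0.93 to -0.61). Its proliferating-like pools, at 107.5 to 165.9 CPM, were below every pool of the 5 other states.

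Ordered by level over both libraries, interferon-like cells came first for *H2-T23*, *Tap1*, *Tap2*, *Tapbp*, *Psmb8*, *Psmb9* and *Nlrc5*, and for all of these but *Psmb8* and *Psmb9* their pools lay above every pool of the state in second place. DAM-like cells came first for *B2m*, above all class II-high pools (1435 to 1992 CPM). Homeostatic cells came last for *H2-K1*, *H2-D1*, *B2m*, *Tap1*, *Psmb8* and *Nlrc5*. In the cells of no state (5925 VEH and 8813 LEM) the *Nlrc5* pools (6.12 to 8.18 CPM) were above all homeostatic pools (4.07 to 5.57 CPM). So were the *B2m* pools (1022 to 1227 against 851.9 to 968.0 CPM). The cells of no state can hold gate markers short of a gate, such as *Isg15* at 24.3 CPM in VEH and 26.5 CPM in LEM. Homeostatic cells hold none by definition. DAM-like cells came last for *Tap2* in LEM and for *Psmb9* in VEH, but not in the other library, and their pools overlapped the homeostatic pools. These orders were not counted over all genes.

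Levels were also read by the number of interferon markers with a count in a cell, where a graded change cannot be told apart from a changing mix of cells. Among cells of no other gate, *Nlrc5* went from 4.65 and 5.02 CPM in VEH and LEM cells with 0 interferon markers to 8.04 and 9.05 CPM with 1 marker, 23.1 and 28.0 CPM with 3 and 183.8 and 201.5 CPM with all 6. *Tap1* went from 28.5 and 29.8 CPM to 213.2 and 254.6 CPM and *H2-T23* from 256.5 and 259.5 CPM to 871.1 and 742.0 CPM. The cells with all 6 markers numbered 38 in VEH and 69 in LEM. *B2m* differed less along the scale, at 940.7 and 950.5 CPM with 0 markers, 1421 and 1458 CPM with 3 and 1724 and 1533 CPM with 6. *H2-K1* did not climb steadily. It was at 661.9 CPM with 4 and 505.7 CPM with 5 markers in VEH. In LEM it was at 686.9 CPM with 3 and 583.8 CPM with 4. Other members also dipped, among them *H2-D1*, at 1102 CPM with 2 and 886.6 CPM with 4 markers in LEM. *B2m* was at 1326 CPM with 4 markers in LEM, below its level with 3.

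Along the DAM markers, at 4 markers, other genes were highest. *B2m* went from 925.8 and 928.8 CPM with 0 markers to 2031 and 2104 CPM with 4, and *H2-D1* from 588.8 and 680.2 CPM to 1397 and 1407 CPM. *Psmb9* was at 80.0 and 76.7 CPM with 0 markers and at 62.8 and 79.1 CPM with 4, and *Tap1* at 29.8 and 30.7 CPM and at 29.6 and 37.3 CPM. The bins of 4 markers held 69 VEH and 125 LEM cells, and those of 5 markers held 2 and 1 cells and are not read.

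**Figure D2:**
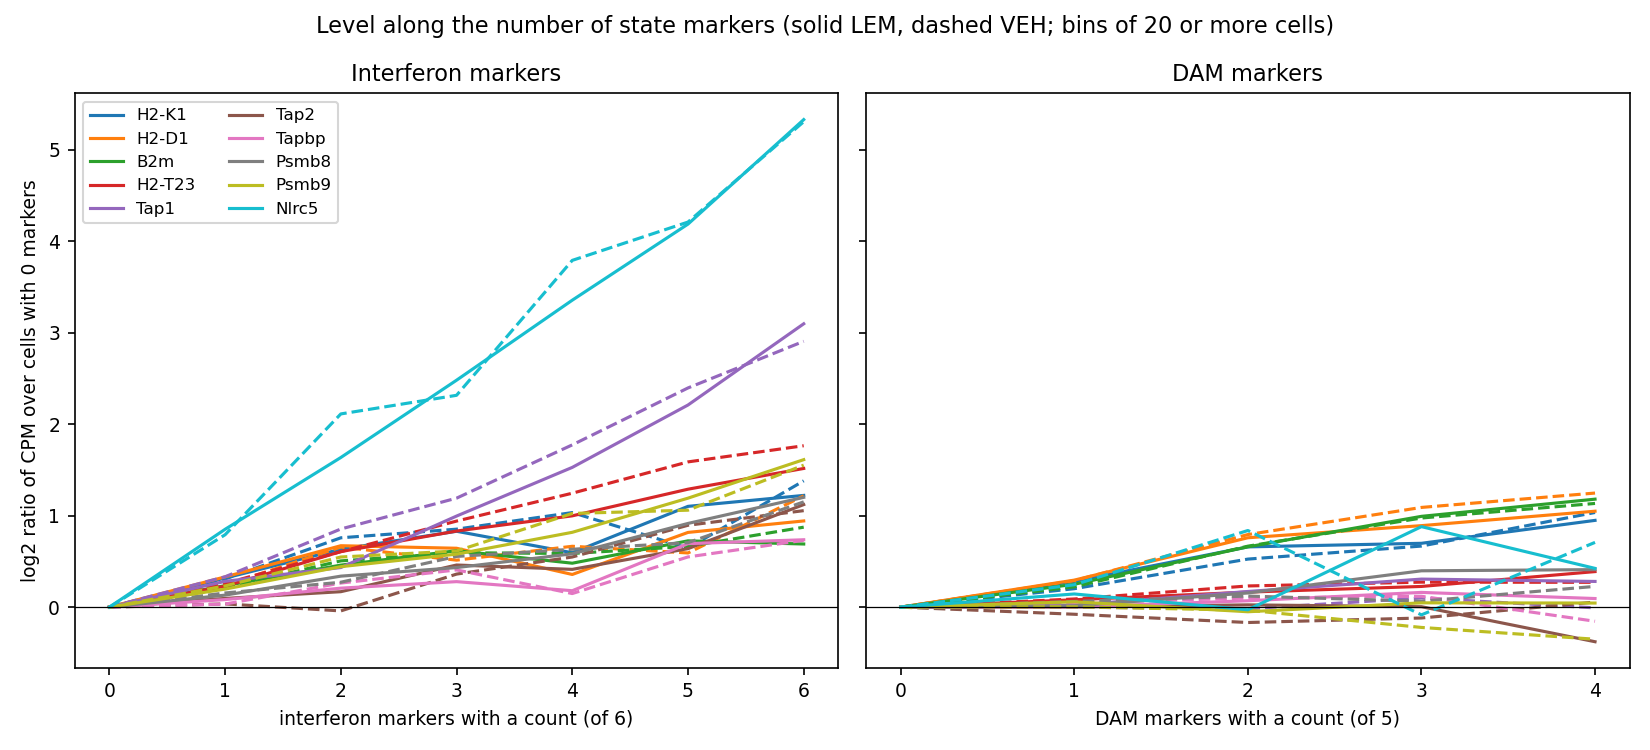
Log2 ratio of CPM over cells with 0 markers (y axis) by the number of interferon markers (left) or DAM markers (right) with a count in the cell, for the 10 genes. Solid lines are LEM, dashed lines VEH, and bins under 20 cells are left out. Nlrc5 and Tap1 climb furthest with interferon markers, reaching 201.5 and 254.6 CPM in LEM, while B2m, H2-D1 and H2-K1 are highest at 4 DAM markers and Nlrc5, from few counts, lies above some of them at 2 or 3.

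Since deeper cells show a count more often, shares of cells were read after thinning each cell to 2000 counts. With that depth *Nlrc5* was found in 0.866% and 0.786% of homeostatic and in 11.8% and 13.2% of interferon-like cells (unthinned 2.19%, 2.62%, 30.9% and 31.3%). *Tap1* was found in 5.51% and 6.0% of homeostatic, 16.5% and 18.1% of interferon-like and 7.69% and 8.66% of DAM-like cells. *B2m* was in 77.3% and 77.2% of homeostatic and 95.5% and 95.9% of DAM-like cells. As a level for free RNA, droplets led by choroid plexus transcripts (49 VEH and 143 LEM) gave *B2m* in 68.1% and 52.9% and *H2-K1* in 19.1% and 31.6% after thinning, against 41.5% and 45.9% of homeostatic cells for *H2-K1*. They gave *Tap1* in 2.13% and 4.41% and *Nlrc5* in 2.13% and 0%, which in VEH was a single droplet, 2 of the 49 being too shallow to thin, and too few to set beside the share of homeostatic cells. These droplets also held *P2ry12* at 2596 and 2070 CPM, so they contained microglial RNA and are not a measure of free RNA alone.

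Each inducible proteasome subunit takes the place of 1 constitutive subunit, Psmb8 of Psmb5, Psmb9 of Psmb6 and Psmb10 of Psmb7, so ratios of their counts were compared between states. The ratio of *Psmb8* to *Psmb5* counts was 1.70 in VEH and 1.67 in LEM homeostatic cells and 2.59 (2.27 to 2.97) and 2.49 (2.26 to 2.74) in interferon-like cells. *Psmb9* to *Psmb6* was 0.622 and 0.597 in homeostatic and 1.08 and 0.997 in interferon-like cells. In DAM-like cells this ratio was 0.400 (0.352 to 0.454) and 0.460 (0.414 to 0.511), below homeostatic cells in both libraries, whereas *Psmb8* to *Psmb5* was 1.92 and 1.93, above them, and both differences had the same sign in each of the 4 pools. These 2 pairs thus differed in opposite directions in DAM-like cells, although a ratio does not say which of its genes changed. *Psmb9* itself had a log2 ratio over homeostatic cells of -0.22 (-0.38 to -0.06) in VEH and 0.06 (-0.07 to 0.19) in LEM. In LEM the lower *Psmb9* to *Psmb6* ratio thus came without a lower level of *Psmb9*. *Psmb10* to *Psmb7* was 2.20 and 2.27 in homeostatic, 2.05 (1.75 to 2.40) and 2.11 (1.84 to 2.43) in DAM-like, with no difference beyond counting error, 4.04 and 3.30 in interferon-like and 1.09 and 1.17 in proliferating-like cells.

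**Figure D3:**
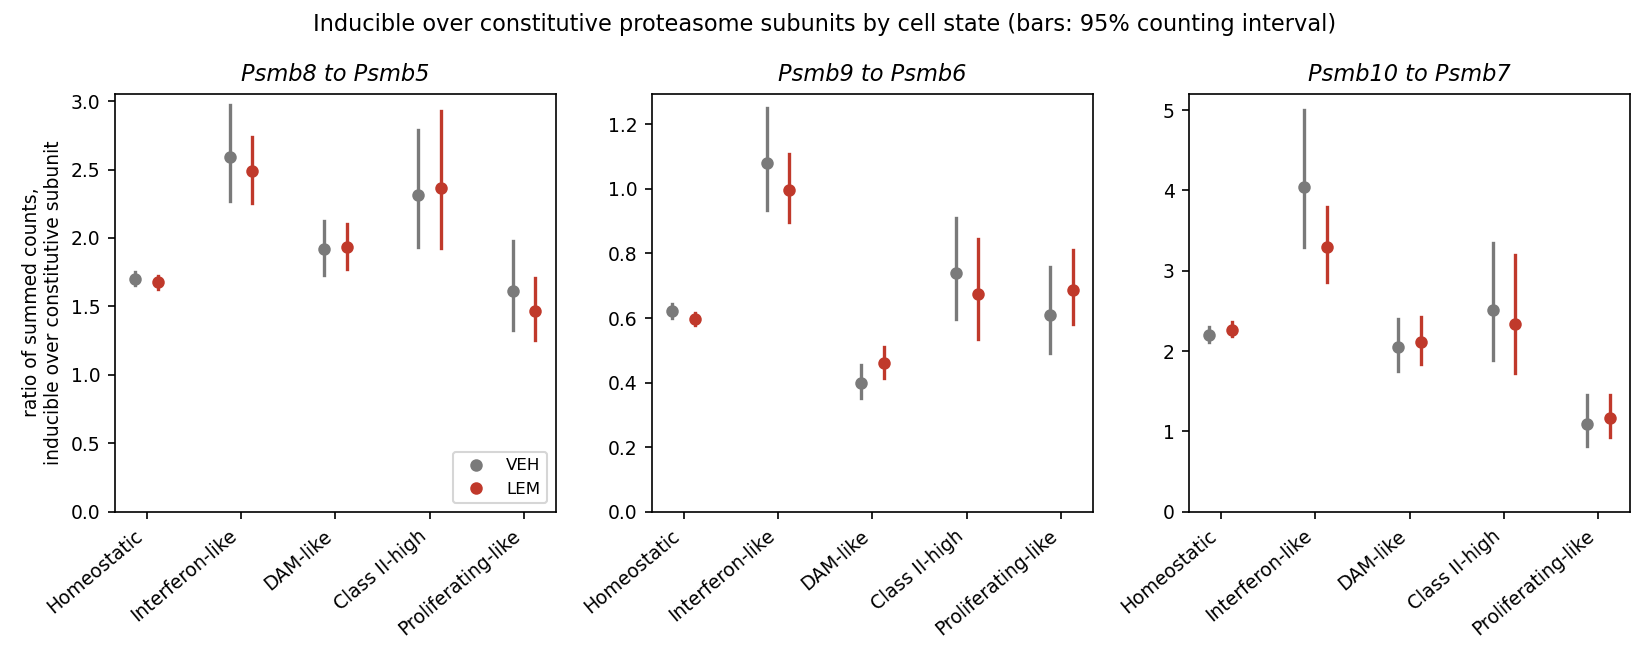
Ratio of summed counts of the inducible over the constitutive proteasome subunit (y axis, from 0) by cell state, with VEH in grey, LEM in red and bars for 95% counting intervals. Among the states shown, interferon-like cells are highest in each panel, and DAM-like cells are lowest for Psmb9 to Psmb6, at 0.400 and 0.460.

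The second question was whether LEM changed the class I genes. Over all cells, 2 of the 9 members detected in at least 10% of cells were higher in LEM by a log2 ratio of at least 0.1, as were 14.1% of the 7521 genes tested, and 0 were lower by as much, against 9.87%. *H2-K1* was at 366.4 CPM in VEH and 437.2 CPM in LEM, a log2 ratio of 0.25 (0.24 to 0.27). *H2-D1* was at 682.4 and 781.2 CPM, a log2 ratio of 0.20 (0.18 to 0.21). *B2m* was at 1039 and 1057 CPM, with 0.03. The median of the members was 0.03 against 0.01 for all genes tested. *Nlrc5*, in 3.64% and 4.26% of cells and so outside the genes tested, had a log2 ratio of 0.18 (0.06 to 0.31). It ran from 0.03 to 0.23 over 10 alternative analyses, with those of female or male cells alone left out.

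For several members the pooled ratio covered opposite differences in the sexes. In female cells all 9 tested members were higher in LEM (as were 19.4% of all genes tested), with a median log2 ratio of 0.22. In male cells 5 of 9 were lower (10.4%), with a median of -0.13. The members higher in female and lower in male cells were *H2-T23*, *Tap1*, *Tap2*, *Psmb8* and *Psmb9*, 5 of 9, where 1.89% of the genes tested showed this pattern. With *B2m* and *Tapbp*, 7 of 9 had opposite signs with both counting intervals off 0, against 10.8% of the genes tested.

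*Psmb9* was at 66.8 CPM in VEH female, 90.6 in VEH male, 89.5 in LEM female and 72.0 in LEM male cells. Its LEM over VEH log2 ratio was 0.42 (0.35 to 0.49) for the female and -0.33 (-0.39 to -0.28) for the male pools, so the VEH male and LEM female pools were high and the others low. *Tap1* had the same shape, at 27.4, 36.2, 38.7 and 30.3 CPM in that order of pools, with log2 ratios of 0.50 and -0.26. *H2-T23* was at 237.2, 300.5, 303.1 and 260.7 CPM, with log2 ratios of 0.35 and -0.21. *Psmb8*, at 171.5, 204.7, 199.0 and 172.9 CPM, and *Tap2*, at 76.7, 89.4, 89.2 and 81.7 CPM, repeated it.

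The heavy chains *H2-K1* and *H2-D1* departed from this shape. *H2-K1* was at 329.6 CPM in VEH female, 387.4 in VEH male, 504.1 in LEM female and 383.0 in LEM male cells, so the LEM female pool was highest, the VEH female pool lowest and the male pools close together, and its log2 ratio was 0.61 (0.58 to 0.64) for the female and -0.02 (-0.04 to 0.01) for the male pools. *H2-D1* was at 761.9, 634.6, 872.5 and 706.7 CPM, with log2 ratios of 0.20 and 0.16, the only member above the threshold in both sexes. *B2m* was at 1048, 1042, 1166 and 981.8 CPM and *Tapbp* at 158.5, 176.4, 181.7 and 166.9 CPM, the member with the smallest ratio of highest to lowest pool. *Nlrc5* was at 6.57, 7.46, 8.53 and 7.56 CPM, with log2 ratios of 0.38 (0.15 to 0.61) and 0.02 (-0.17 to 0.20). The spread between female and male mice given the same treatment was of the size of the treatment ratios. For *H2-K1*, female over male was -0.23 in VEH and 0.40 in LEM.

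**Figure D4:**
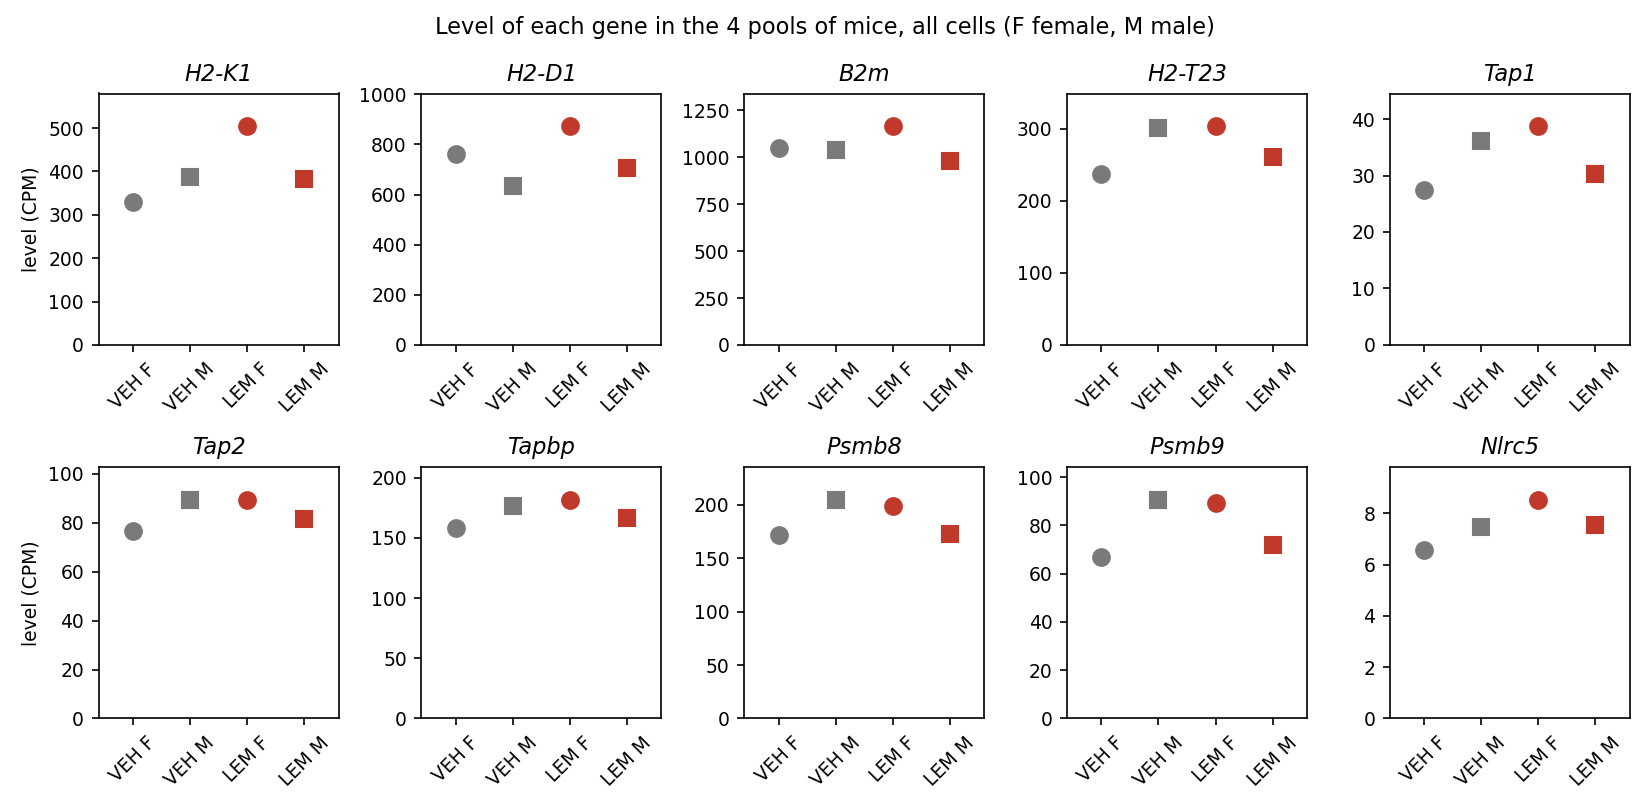
Level in CPM (y axis, from 0) of each gene in the 4 pools of mice over all cells of a pool, with VEH in grey, LEM in red, circles for female and squares for male cells. Tap1, H2-T23, Tap2, Psmb8 and Psmb9 are high in the VEH male and LEM female pools, and H2-K1 is highest in the LEM female pool at 504.1 CPM.

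The interferon-like share of cells moved with these members in the female pools and was level in the male pools. It was 1.27% (0.99 to 1.59) of VEH female, 2.03% of VEH male, 2.77% (2.43 to 3.14) of LEM female and 2.02% of LEM male cells. The 6 interferon markers summed to 57.1, 81.1, 91.7 and 80.2 CPM in the same order of pools, and to 24.3, 32.2, 40.5 and 25.3 CPM in cells outside the interferon-like state. Within homeostatic cells, which have no count of these markers, 8 of the 9 members tested were still above 0 in female and below 0 in male cells, as were 18.5% of all genes tested, with *Psmb9* at 0.40 and -0.36, *Tap1* at 0.59 and -0.29, *H2-T23* at 0.34 and -0.19 and *H2-K1* at 0.61 and -0.06. The exception was *H2-D1*, at 0.12 and 0.23. In DAM-like cells 8 of 9 had these signs (25.2% of all genes tested), with *Psmb9* at 0.74 and -0.28. Of these, *H2-K1*, *H2-T23* and *Tapbp* alone had both counting intervals off 0. In interferon-like cells 7 of 9 had the signs (22.3%), but of these *B2m* alone had both intervals off 0. *Tap1* was there at -0.02 and 0.04, with intervals that included 0. *Nlrc5* had the opposite signs, at -0.71 (-1.23 to -0.17) for the female and 0.50 (0.10 to 0.91) for the male pools. The part of a wider interferon response in the differences between pools was not tested.

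**Figure D5:**
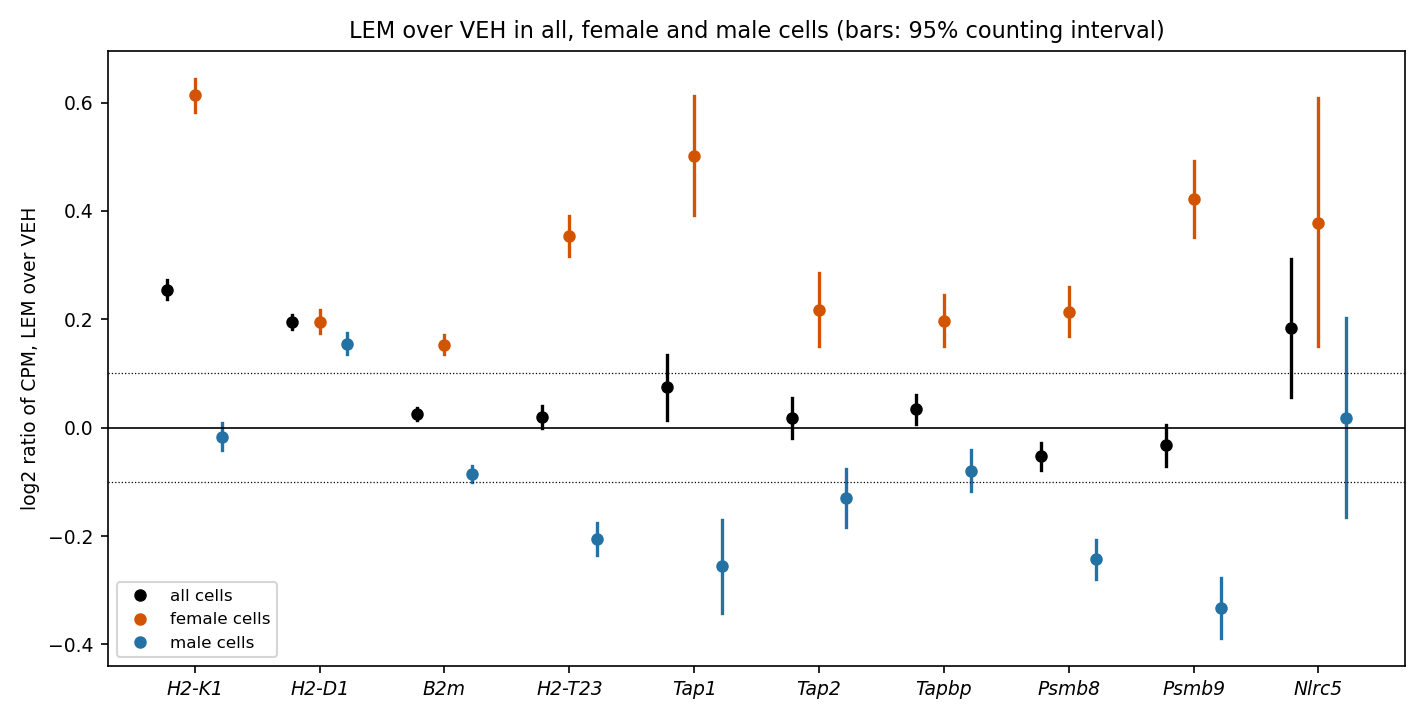
Log2 ratio of CPM of LEM over VEH (y axis) for the 10 genes in all cells (black), female cells (orange) and male cells (blue), with bars for 95% counting intervals and dotted lines at 0.1 and -0.1. Female cells lie above the line of 0 for each gene, up to 0.61 for H2-K1, and male cells below it for 8 of 10, down to -0.33 for Psmb9.

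With the sexes joined, the treatment ratios within the states of *H2-K1* were 0.21 in homeostatic, 0.17 in interferon-like, 0.12 in DAM-like and 0.48 in proliferating-like cells, with intervals above 0, and 0.07 (-0.05 to 0.19) in class II-high cells. By sex *H2-K1* was above 0 in male proliferating-like cells too, at 0.52 (0.33 to 0.70), while it was at 0.40 in female and -0.12 (-0.21 to -0.02) in male DAM-like cells and at 0.44 and -0.03 (-0.15 to 0.09) in interferon-like cells, of which 72 were female and 183 male in VEH and 233 and 227 in LEM. *H2-D1* was at 0.19 in homeostatic, 0.11 in interferon-like and 0.40 (0.29 to 0.51) in proliferating-like cells and at -0.04 (-0.09 to 0.00) in DAM-like cells. *H2-T23* was at -0.18 (-0.27 to -0.09) in interferon-like cells, made up of 0.02 (-0.16 to 0.20) for the female and -0.39 (-0.52 to -0.26) for the male pools.

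Other genes of the pathway were read from a list of 51 genes in the table. Between treatments, 5 of 37 tested were higher in LEM, namely *Pirb* (0.45), a receptor for class I on myeloid cells, *Pilra* (0.27), *H2-T24* (0.20), *H2-Q4* (0.15) and *Ifnar2*, whose ratio was 0.35 for the female and -0.06 for the male pools, and 2 were lower, the regulators *Irf1* (-0.18) and *Nfkb1* (-0.13). The first count lay near the 14.1% of all genes tested that were higher, and the second was under the 9.87% that were lower. *Pirb* was above 0 in both sexes (0.48 and 0.43), as was *Pilra* (0.37 and 0.17).

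In interferon-like cells 9 of 36 list genes detected in homeostatic cells were past the threshold (1.99% of such genes), among them the non-classical heavy chain *H2-T24* (mean log2 ratio 1.56), *Psmb10*, *Psme1* and *Psme2*. *Stat2* (2.85) and the heavy chain *H2-Q6* (2.04) passed the filter through the interferon-like cells alone. The lowest was the interferon gamma receptor gene *Ifngr1* at -0.43. In DAM-like cells 1 of 36 was past it, *Ifnar2* (0.52), against 5.63% of such genes. *Lilrb4a* (4.78), an inhibitory receptor gene, passed the filter through the DAM-like cells alone. *Psme2* (0.48) and *Psme1* (0.47), which encode the proteasome activator, lay just under it. *Pirb* was at -1.40 and *Ifngr1* at -1.06.

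The closest genes among 11887 were named for *H2-K1*, *H2-D1*, *B2m*, *Tap1*, *Psmb8* and *Nlrc5*. The measure was Pearson's r of log2(CPM + 1) across 23 sums of counts by library, sex and state. Each sum held at least 50 cells, and 1 was of choroid plexus-like droplets. These values are a description, since the sums share libraries and states. *H2-D1* and *B2m* were each other's closest gene (0.95). For *Tap1* and *Nlrc5* the closest was *Slfn2* (0.94 and 0.94), with *Tap1* and *Nlrc5* at 0.91 to each other. *H2-K1* was closest to *Cybb* (0.91) and *Psmb8* to *Shisa5* (0.90). *H2-D1* and *Tap1* were at 0.33 and *B2m* and *Tap2* at 0.25, among the lowest values between members.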

How the data were processed

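Microglia of VEH and LEM mice were profiled as 1 10x Genomics 5′ library per treatment. The authors counted reads with Cell Ranger 8.0.0 on mm10, corrected for free RNA with SoupX, and filtered cells on genes, counts and mitochondrial share. The deposited table gives a whole-number count for each gene in each cell. Whether these counts include the SoupX correction could not be told, and none was added. Cell names carry no barcodes, so barcodes shared between the libraries could not be counted.

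Summed counts per library, state and sex were compared as log2 ratios of CPM. Intervals (95%, exact conditional binomial for ratios, Clopper-Pearson for shares) cover counting error only and not the differences between mice. With 1 library per treatment no test was made. A treatment ratio was past the threshold at 0.1, among genes found in 10% of the cells of a library or more, and a state ratio at 0.5 in both libraries, among genes found in 10% of the cells of either state or, as an added alternative, of homeostatic cells. Gate genes were not among the genes tested. Members, lists and gates were chosen with earlier results of these data known. Beside the members, the text names the pathway genes past a threshold or among the 4 at either end, and the genes closest in pattern to a member. A gene that this rule would name is not reported here. A further DAM marker was not used here. Doublets were scored in each library by Scrublet in scanpy 1.11.5 at an expected rate of 0.1. Thinning to 2000 counts left out 1305 VEH and 1215 LEM cells. Positions are from GENCODE M21 and promoters from RefSeq. The steps were tested on simulated data and run in Python 3.11.15 with scipy 1.17.1.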

Additional observations from a re-analysis of the deposited data

Results flagged for a closer look

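The LEM over VEH log2 ratio had opposite signs in female and male cells for 7 members, with counting intervals that left out 0 on both sides. These were 7 of 9 members tested, against 10.8% of all genes tested. The difference, female minus male, was 0.76 for *Tap1*, 0.75 for *Psmb9*, 0.56 for *H2-T23*, 0.46 for *Psmb8*, 0.35 for *Tap2*, 0.28 for *Tapbp* and 0.24 for *B2m*. Each sex of each library is 1 pool of mice, so these differences were not tested, and sex cannot be told apart from other differences between the mice pooled.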

How the results depend on the processing

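No paired analysis was possible because each treatment is 1 pooled library, and there was no replicate to leave out. The number of members higher in LEM, 2, was 1 at a threshold of 0.25, 9 in female cells only and 1 in male cells only, where the ratio of *H2-K1* turned to -0.017. The 5 members of opposite direction in the sexes, whose alternatives were all chosen after seeing the data, were 2 at a threshold of 0.25 and otherwise between 5 and 7. At a threshold of 1, interferon-like cells had 4 members and class II-high cells 2. Scaling by the median of ratios gave 5 members in DAM-like cells, and gates and levels at 2000 counts gave 1 in proliferating-like cells. At the other thresholds, scaling and depth, the share of all genes past the threshold was not counted. In all, 46 of 54 recomputed counts were within 1.5 times the value reported. Of 320 recomputed state ratios, 311 kept their direction, and of 120 treatment ratios, 108. Sizes held less well. Of the state ratios, 158 moved by more than a tolerance set by the difference between the 2 libraries. Of the treatment ratios, 35 fell outside their counting interval, besides the 1 of *H2-K1* in male cells that turned. Outside the analyses by sex, *H2-K1* ran from 0.21 to 0.30, *H2-D1* from 0.18 to 0.21 and *Nlrc5* from 0.03 to 0.23. All 40 shares of cells fell outside their counting intervals when cells were thinned or 2 counts were required. With 826 VEH and 1298 LEM counts, *Nlrc5* is the member whose values depth limits most.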

Other observations

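The border-associated macrophage-like (BAM-like) cells, gated by at least 3 of 6 markers and under 50 in VEH, were left out of the state comparisons. In these 25 VEH and 68 LEM cells *H2-K1* was at 862.4 and 919.1 CPM and *H2-D1* at 1428 and 1549 CPM, log2 ratios over homeostatic cells of 1.48 and 1.36 for *H2-K1* and 1.34 and 1.27 for *H2-D1*. *B2m* was at 1069.8 and 1136 CPM, with log2 ratios of 0.24 (0.04 to 0.43) and 0.34 (0.23 to 0.45). *Tap2* was at 108.4 and 105.0 CPM, with intervals that included 0. *Nlrc5* rested on 5 and 9 counts. The differences between these and the other states were not tested.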
